A study of Mus musculus with 10 samples.

Results

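The 8 genes Mgmt, Alkbh2, Mpg, Parp1, Msh6, Msh3, Mlh3 and Pms2 repair alkylated or mismatched DNA, the damage made by azoxymethane (AOM), a colon carcinogen that is turned into a methylating agent in the body. They were picked by name from the 23364 genes of both deposited tables, with no cut on their values but with earlier results of these data known, and all 8 were found in both tables. RNA was sequenced from crypts shaken off the mouse distal colon with EDTA. The AOM+DSS group (3 libraries) received AOM and then dextran sulfate sodium (DSS), a polymer that injures the colon lining and causes colitis, and the submitters describe it as their cancer condition. The DSS group (4 libraries) received DSS with no AOM listed, and the control group (3 libraries) was untreated. The sources used here do not give strain, age, doses, the interval between AOM and sampling, or whether tumours were dissected. Nothing in the labels says that libraries of a group stem from different mice, so p-values speak only of the spread among these libraries, part of which may be technical.

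AOM methylates DNA bases, and the O6-methylguanine it leaves pairs with thymine at replication. Mgmt takes the methyl group off O6-methylguanine directly. Mismatch repair meets the resulting guanine-thymine mispair: the MutS dimer that contains Msh6 binds single mismatches, the one that contains Msh3 binds larger loops, and MutL dimers that contain Pms2 or Mlh3 act after them. Methylated purines on other positions are cut out by the glycosylase Mpg, with Parp1 sensing the strand breaks of base excision repair, and Alkbh2 reverses a further set of lesions by oxidation.

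No member of the set passed the authors' test against control in either treated group. In the authors' deposited tables, 0 of 8 had an adjusted p under 0.05 (DESeq with Benjamini-Hochberg adjustment) in AOM+DSS against control, where 8.89% of 18334 genes tested were called, and 0 of 8 in DSS against control, where 4.39% of 18099 were called. None had an unadjusted p under 0.05 in either. The authors' log2 fold was below 0 for 7 of 8 members in each comparison. The same held for 8626 of 18334 genes tested in AOM+DSS and 8646 of 18099 in DSS. The members' median was -0.28 in AOM+DSS and -0.30 in DSS, beside 0.04 and 0.02 over all genes tested. Both comparisons use the same 3 control libraries, so a high control value moves both. In a bulk library, fewer cells of a type and less RNA per cell cannot be told apart.

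The tables print group means only, as normalized read counts (reads divided by a size factor per library). For all 8 genes the whole reads behind each mean were recovered, because only 1 combination of whole reads gives the printed digits, and levels are therefore given per library. Libraries are lettered by size factor, a measure of depth, within their group, a being the deepest, and the letters cannot be tied to replicate numbers. Size factors were 0.91 to 1.34 in AOM+DSS, 0.64 to 1.27 in DSS and 0.94 to 1.04 in control. Reads per library ranged from 44 to 141 for Mgmt, the least covered member, and from 556 to 1735 for Parp1, the most covered.

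Mgmt, the direct reversal enzyme, had the lowest fold of the 8 in both comparisons. It had 51.3, 77.8 and 67.4 normalized reads in AOM+DSS libraries a to c, 51.4, 67.6, 62.3 and 74.5 in DSS libraries a to d, and 136.1, 73.1 and 108.0 in control libraries a to c. Control b lay within the treated range and the other two controls lay above it, so the groups overlapped. The means were 65.5 ± 13.3 in AOM+DSS (SD, n = 3), 63.9 ± 9.73 in DSS (n = 4) and 105.8 ± 31.6 in control (n = 3). The authors' deposited log2 fold was -0.69 in AOM+DSS (adjusted p = 0.435) and -0.73 in DSS (adjusted p = 0.438). A second test on the recovered reads, limma with a mean trend on log2(normalized reads + 1), gave a log2 difference of -0.66 in AOM+DSS (95% interval -1.38 to 0.06, adjusted p = 0.156) and -0.69 in DSS (95% interval -1.31 to -0.06, adjusted p = 0.154). A 2-fold lower level lies inside both intervals. Without control b the limma difference was -0.90 in AOM+DSS (adjusted p = 0.0545) and -0.93 in DSS (adjusted p = 0.0660), and without control a it was -0.46 (adjusted p = 0.441) and -0.48 (adjusted p = 0.489) in the same comparisons. Over all single libraries left out it ran from -0.90 to -0.46 in AOM+DSS and from -0.93 to -0.48 in DSS, and it was never called.

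Because the CpG-rich promoter of the human counterpart MGMT is known to be silenced by methylation in tumours, the mouse sequence upstream of the first listed Mgmt start is shown. RefSeq entries matched all 8 members, with 10 promoters. The window is chr7:136894336-136894585 on the plus strand of GRCm38.p6, the 250 bases before the start, and capitals mark GC boxes (GGGCGG on either strand).
Mgmt promoter: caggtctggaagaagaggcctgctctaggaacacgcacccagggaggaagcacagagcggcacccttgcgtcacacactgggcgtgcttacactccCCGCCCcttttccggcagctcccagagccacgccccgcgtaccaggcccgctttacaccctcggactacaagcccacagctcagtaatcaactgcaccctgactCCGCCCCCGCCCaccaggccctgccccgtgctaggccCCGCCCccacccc
It holds 4 GC boxes and 15 CpG dinucleotides, while a second RefSeq promoter of Mgmt holds 0 and 2. The Msh6 promoter holds 5 GC boxes and 27 CpG dinucleotides and that of Msh3 4 and 20, so these counts are not particular to Mgmt. Of 32851 RefSeq promoters of the same length, 32.74% hold at least 1 GC box and 4.09% hold 4 or more. DNA methylation was not measured in these tables.

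Alkbh2, the other direct reversal enzyme among the members, varied widely among the DSS libraries. It had 99.6, 109.2 and 127.0 normalized reads in AOM+DSS, 86.9, 121.1, 186.9 and 210.9 in DSS, and 136.1, 71.1 and 138.8 in control. DSS c and d lay above every other library, while DSS a and b lay within the control range. The authors' deposited log2 fold was -0.04 in AOM+DSS (adjusted p = 1) and 0.39 in DSS (adjusted p = 0.994). The limma interval in DSS was the widest of the 8 in that comparison, from -0.48 to 1.21 around 0.37 (adjusted p = 0.574). Alkbh2 overlaps Usp30, a mitochondrial deubiquitinase gene on the opposite strand, by 795 bases. Usp30 had 371.2 to 439.2 normalized reads in AOM+DSS, 403.3 to 413.4 in DSS and 455.5 to 469.1 in control. Both treated groups of Usp30 lay below control, as 9.11% of 10328 genes recovered in every library did, and its deposited adjusted p was 0.858 in AOM+DSS and 0.988 in DSS.

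Mpg, the glycosylase that removes methylated purines, was below every control in all 3 AOM+DSS libraries. It had 330.2, 331.7 and 369.0 normalized reads in AOM+DSS, 283.8, 295.0, 450.3 and 425.0 in DSS, and 414.2, 438.5 and 484.1 in control. AOM+DSS and control did not overlap, whereas DSS c and d lay within the control range. Of 12718 genes tested with limma, 20.6% lay below all controls in all AOM+DSS libraries in the same way. The means were 343.6 ± 22.0 in AOM+DSS (SD, n = 3), 363.5 ± 86.4 in DSS (n = 4) and 445.6 ± 35.5 in control (n = 3). The authors' deposited log2 fold was -0.37 in AOM+DSS (adjusted p = 0.525), and limma gave -0.37 (95% interval -0.67 to -0.08, adjusted p = 0.0712). In GENCODE M21 the gene overlaps Nprl3, on the opposite strand, by 6196 bases. All gene overlaps given here are of whole gene spans, introns included, and the overlap of exons was not counted. The library kit does not mark strand, so reads of any exon bases that both genes share may not be told apart. Nprl3 had 344.7 to 403.0 normalized reads in AOM+DSS, 318.5 to 418.8 in DSS and 376.3 to 408.8 in control, ranges that overlapped.

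Parp1, the strand break sensor, had 1259.7, 1212.6 and 946.8 normalized reads in AOM+DSS, 1371.4, 1294.4, 848.2 and 862.4 in DSS, and 1598.9, 1164.4 and 1333.5 in control. Only AOM+DSS c and DSS c and d lay below the control range. The authors' deposited log2 fold was -0.26 in AOM+DSS (adjusted p = 0.740) and -0.32 in DSS (adjusted p = 0.827).

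**Figure D1:**
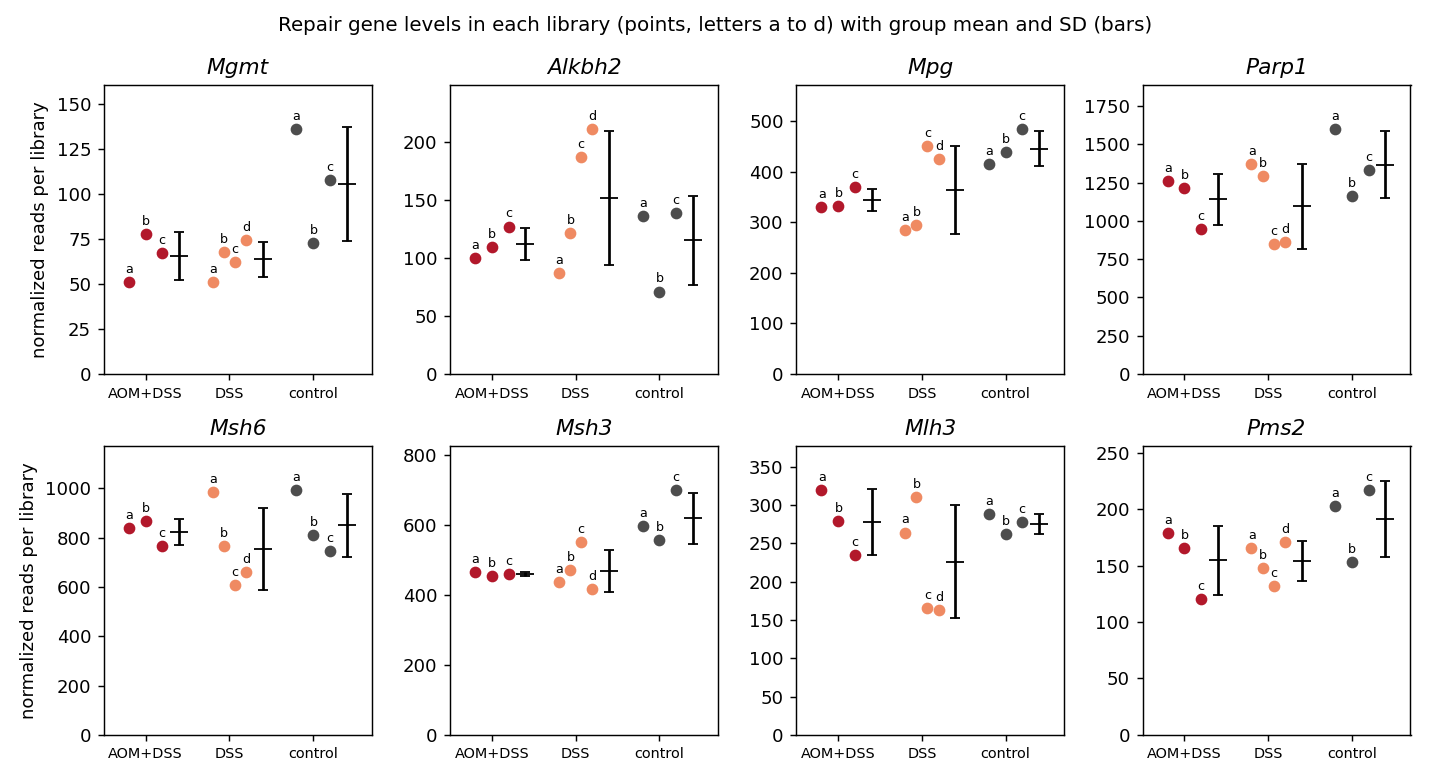
Normalized reads (linear axes from 0) of the 8 genes in each library, in AOM+DSS, DSS and control, with library letters beside the points and the group mean and SD as bars. The treated points of Msh3 all lie below the 3 control points (highest treated 552.3, lowest control 558.0), while the groups overlap for Mgmt.

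Msh3, of the loop-binding MutS dimer, was the only member below every control in all treated libraries. It had 464.8, 454.1 and 458.5 normalized reads in AOM+DSS, 437.1, 472.1, 552.3 and 415.7 in DSS, and 597.6, 558.0 and 700.1 in control. All 7 treated libraries lay below all 3 controls, by a narrow margin for DSS c at 552.3 against control b at 558.0. The same was true of 9.11% of 10328 genes recovered in every library with a mean of at least 10. Of the genes tested with limma in DSS against control, 13.2% had all DSS libraries below all controls. The AOM+DSS libraries differed little among themselves, with a mean of 459.1 ± 5.35 (SD, n = 3), beside 469.3 ± 60.0 in DSS (n = 4) and 618.6 ± 73.3 in control (n = 3).

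The authors' deposited log2 fold of Msh3 was -0.43 in AOM+DSS (adjusted p = 0.397) and -0.40 in DSS (adjusted p = 0.503). With limma, Msh3 fell by 0.42 on the log2 scale in AOM+DSS (95% interval -0.71 to -0.14, adjusted p = 0.0462), the single call among the 8. Of all genes tested there, limma called 21.8%, and 8.59% as lower. In DSS the limma difference was -0.40 (95% interval -0.73 to -0.07, adjusted p = 0.124), and 0 of 8 members were called, where 8.1% of all genes tested were. In the limma fit of DSS, 2 members, Mgmt and Msh3, had an unadjusted p under 0.05, and in that of AOM+DSS also 2, Mpg and Msh3, where 26.9% and 39.5% of all genes tested in the same fits had one. The AOM+DSS call did not survive leaving out 5 of the 6 libraries singly: the adjusted p was 0.125 without AOM+DSS a, 0.116 without b, 0.0572 without c, 0.141 without control a and 0.165 without control c. Without control b it was 0.0287.

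Msh6, of the MutS dimer that binds single mismatches, had 838.8, 866.8 and 764.5 normalized reads in AOM+DSS, 984.1, 765.4, 607.5 and 660.7 in DSS, and 993.5, 808.8 and 745.7 in control. The AOM+DSS libraries lay within the control range, and DSS c and d lay below it. The authors' deposited log2 fold was -0.04 in AOM+DSS (adjusted p = 1) and -0.17 in DSS (adjusted p = 1). Fbxo11, whose annotation overlaps that of Msh6 by 34 bases on the opposite strand, had 1287.9 to 1526.9 normalized reads in AOM+DSS, 1126.1 to 1522.4 in DSS and 1122.8 to 1192.0 in control. It did not pass in either deposited comparison (adjusted p = 0.589 in AOM+DSS and 0.887 in DSS). Msh6 and Msh3 compete for the same MutS partner. The number of Msh6 reads per Msh3 read was 1.80, 1.91 and 1.67 in AOM+DSS, 2.25, 1.62, 1.10 and 1.59 in DSS, and 1.66, 1.45 and 1.07 in control. All AOM+DSS ratios lay above the control ratios, by a small margin between AOM+DSS c and control a, and DSS overlapped with both. Msh3, by which the ratio divides, itself lay below all controls in all AOM+DSS libraries, as did 20.6% of single genes tested with limma. The share of other gene pairs whose ratios separate in this way was not counted. With 3 libraries against 3, an exact two-sided permutation test cannot go below a p of 0.1, and none was run.

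Mlh3, a MutL subunit known for its role in meiotic crossing over as well as repair, had 319.8, 278.7 and 234.2 normalized reads in AOM+DSS, 264.0, 310.6, 165.7 and 162.9 in DSS, and 287.7, 261.7 and 277.5 in control. DSS c and d were the lowest libraries and AOM+DSS a the highest. The authors' deposited log2 fold was 0.01 in AOM+DSS (adjusted p = 1) and -0.29 in DSS (adjusted p = 0.996). Pms2, the MutL subunit that nicks the strand to be repaired, had 178.5, 165.4 and 120.4 normalized reads in AOM+DSS, 165.2, 147.5, 131.7 and 170.6 in DSS, and 202.8, 153.1 and 217.1 in control. Control b lay among the treated libraries and the other two controls above all of them. The authors' deposited log2 fold of Pms2 was -0.30 in AOM+DSS (adjusted p = 0.863) and -0.31 in DSS (adjusted p = 0.883). Aimp2, a scaffold of the tRNA synthetase complex, starts 117 bases from Pms2 on the opposite strand, with a gap of 116 bases between the genes. It averaged 659.5 ± 25.9 normalized reads in AOM+DSS (SD, n = 3), 651.1 ± 141.3 in DSS (n = 4) and 857.2 ± 156.0 in control (n = 3), a deposited log2 fold of -0.38 in AOM+DSS (adjusted p = 0.460) and -0.40 in DSS (adjusted p = 0.359).

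Between the treatments no member passed the test. In limma, 0 of 8 passed an adjusted p of 0.05 in AOM+DSS against DSS, where 2.73% of 10365 genes did, and none had an unadjusted p under 0.05. The log2 differences ran from -0.36 for Alkbh2 (95% interval -1.10 to 0.39, adjusted p = 0.678) to 0.34 for Mlh3 (95% interval -0.28 to 0.96, adjusted p = 0.624). For Mgmt the difference was 0.03 (95% interval -0.59 to 0.65) and for Msh3 -0.02 (95% interval -0.34 to 0.30). A change of 2-fold in either direction lay outside the 95% interval for 7 of 8 members between the treatments, with Alkbh2 as the exception. It lay outside for 7 of 8 in AOM+DSS against control, with Mgmt as the exception, and for 6 of 8 in DSS against control, with Mgmt and Alkbh2 as exceptions.

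**Figure D2:**
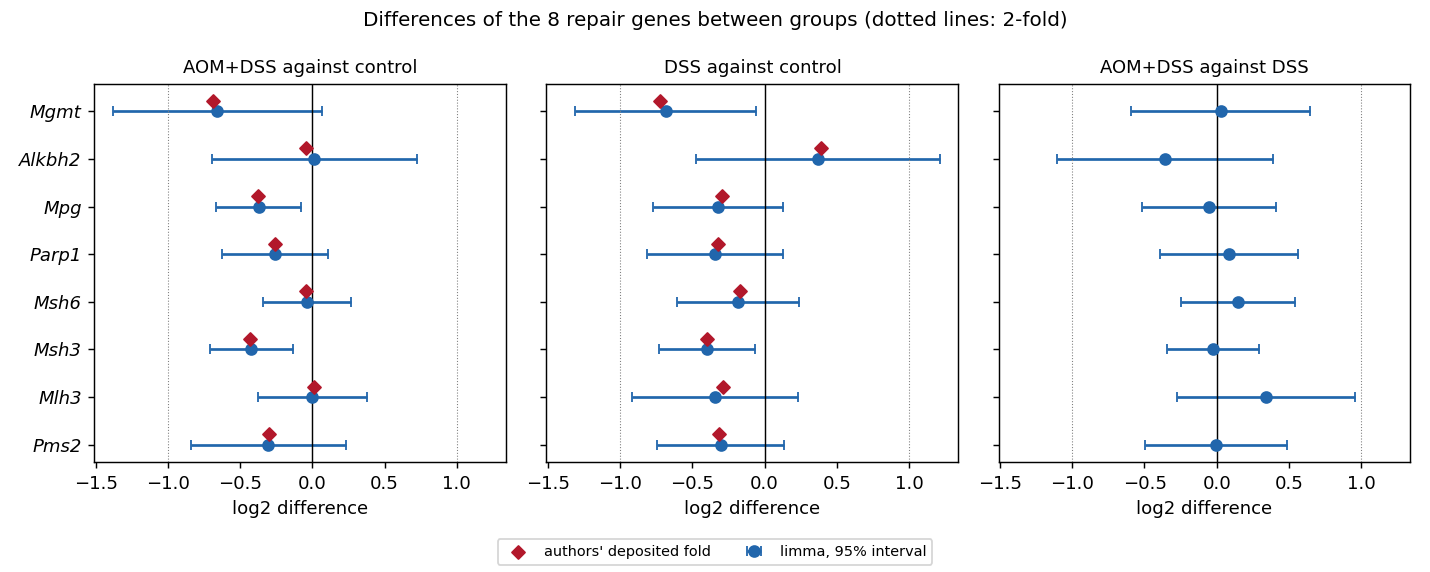
Log2 differences of the 8 genes in AOM+DSS against control, DSS against control and AOM+DSS against DSS, as the authors' deposited fold (diamonds, first 2 panels) and as the limma difference with its 95% interval (circles and lines), with dotted lines at 2-fold. The intervals of Msh3 lie below 0 in both comparisons with control (upper ends -0.14 and -0.07) and span 0 between the treatments.

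Per kilobase of the longest coding transcript in GENCODE M21, Parp1 was the most abundant of the 8 and Mgmt and Pms2 the least. Parp1 had 294.3 ± 43.6 normalized reads per kb in AOM+DSS (SD, n = 3), 282.5 ± 71.7 in DSS (n = 4) and 352.6 ± 56.5 in control (n = 3). Mgmt had 22.6 ± 4.6 in AOM+DSS, 22.1 ± 3.36 in DSS and 36.5 ± 10.9 in control, and Pms2 had 28.2 ± 5.56, 28.0 ± 3.23 and 34.8 ± 6.13 in the same groups. In control crypts the order by level per kb was Parp1, Mpg, Msh6, Msh3, Alkbh2, Mlh3, Mgmt and Pms2. The library ranges of neighbours in that order overlapped for Msh6 (175.4 to 233.7) with Msh3 (141.4 to 177.4), and for Mgmt (25.3 to 47.0) with Pms2 (27.9 to 39.6). In AOM+DSS and DSS Mgmt stood last, behind Pms2, with overlapping ranges. Transcripts other than the longest would change these levels per kb.

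The 4 DSS libraries fell into a deeper pair (a and b) and a shallower pair (c and d). The pairs did not overlap for 5 of the 8 members, and for 69.8% of 10022 genes recovered in the DSS libraries with a mean of at least 10. The mean of a and b over that of c and d was -0.94 on the log2 scale for Alkbh2, -0.60 for Mpg, 0.46 for Msh6, 0.64 for Parp1 and 0.81 for Mlh3, and for each of these the pairs did not overlap. It was -0.20 for Mgmt, -0.09 for Msh3 and 0.05 for Pms2, whose pairs did. The longest coding transcript measures 1073 bases for Alkbh2, 1737 for Mpg, 2894 for Mgmt, 3873 for Parp1, 3946 for Msh3, 4251 for Msh6, 5463 for Mlh3 and 5482 for Pms2. The shortest 2 had the lowest ratios, but the longest, Pms2, was near 0. Tertiles of transcript length were formed from those of the 10022 genes with a known length. The median of the same ratio was -0.17 in the shortest tertile, 0.12 in the middle tertile and 0.37 in the longest. Single genes spread widely, from a 5th percentile of -0.91 to a 95th of 1.76. Leukocyte marker sums moved with the split too. They came to 15840.4 normalized reads in DSS a and 8933.1 in DSS b, beside 2701.9 in DSS c and 2764.0 in DSS d. The part of transcript length, depth or leukocytes in the members' values was not tested.

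**Figure D3:**
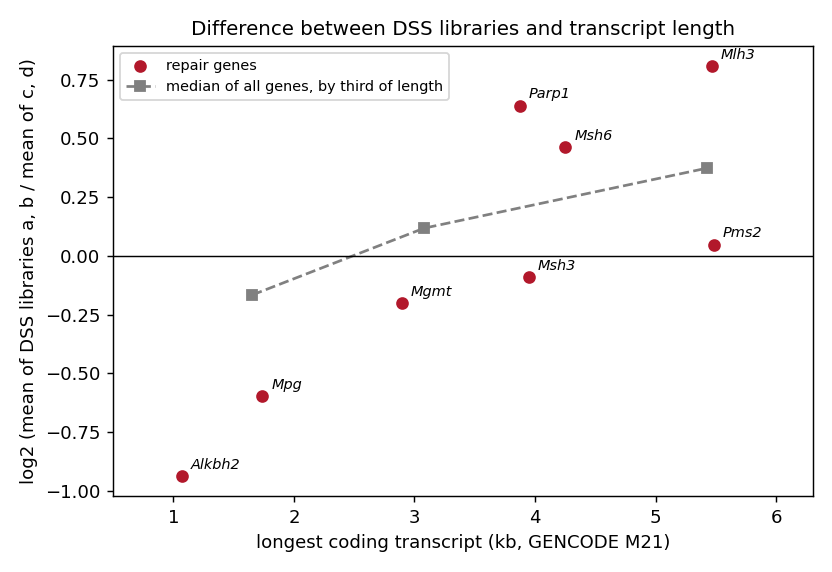
Log2 ratio of the mean of DSS libraries a and b to the mean of c and d (vertical axis) for the 8 genes. The horizontal axis gives the length of the longest coding transcript in kb. Squares give the median by tertile of length, over genes recovered in DSS with a mean of at least 10. The 8 genes run from -0.94 for Alkbh2 to 0.81 for Mlh3, with Pms2, the longest, at 0.05, and the squares from -0.17 to 0.37.

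Dropping one of these pairs moved the limma calls in DSS against control, over all genes as well as among the members. The pairs were formed from these same libraries, so the calls of these fits show how results moved and are no separate test. Limma called 8.1% of all genes with every library, 13.9% without a and b and 19.0% without c and d. Without a and b, the log2 difference was -0.74 for Mlh3 (adjusted p = 0.0204) and -0.66 for Parp1 (adjusted p = 0.0263), and both were called. Without c and d, Mpg was called at -0.62 (adjusted p = 0.0321), and Alkbh2, Msh6 and Mlh3 changed sign, to -0.10, 0.04 and 0.06. Mgmt, Mpg, Parp1, Msh3 and Pms2 kept their direction whichever pair was left out. Mpg was near 0 without a and b (-0.02), as was Parp1 without c and d (-0.02).

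Sums of marker genes varied between and within the groups. The 15 leukocyte markers recovered in every library summed to 5607.7 to 14557.8 normalized reads in AOM+DSS, 2701.9 to 15840.4 in DSS and 419.4 to 2907.5 in control. The 18 stromal and smooth muscle markers summed to 3604.3 to 16466.3 in AOM+DSS, 908.9 to 1919.2 in DSS and 1118.5 to 4114.3 in control. No marker of these lists had a group mean of 0. All 9 pan-epithelial markers were abundant, with lowest group means of 3548.8 in AOM+DSS, 4429.6 in DSS and 2337.9 in control. Control b had the highest leukocyte and stromal sums of the controls, and also the lowest Mgmt, Alkbh2, Parp1, Msh3, Mlh3 and Pms2. AOM+DSS c had a stromal sum of 16466.3, beside 3604.3 and 4863.6 in AOM+DSS a and b. It had the lowest Parp1, Msh6, Mlh3 and Pms2 of its group, but the highest Alkbh2 and Mpg. AOM+DSS b, with the highest leukocyte sum of its group (14557.8), had the highest Mgmt and Msh6 and the lowest Msh3. The share of all genes with their lowest or highest level in these libraries was not counted. The part of cell composition in the members' differences was not tested.

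In the wider repair lists a single repair gene passed the authors' threshold. The 9 lists, of 134 genes, were drawn up with earlier results of these data known. In the authors' deposited tables, 4 of the 134 were called in AOM+DSS and 1 in DSS. Of all genes tested, 8.89% were called in AOM+DSS and 4.39% in DSS. Parp3, a relative of Parp1 that acts at strand breaks, rose in both. Its mean was 1434.3 normalized reads in AOM+DSS, 1453.7 in DSS and 708.6 in control. The authors' deposited log2 fold was 1.02 in AOM+DSS (adjusted p = 0.000279) and 1.04 in DSS (adjusted p = 0.000418). The other 23 base excision repair genes did not pass in AOM+DSS, nor did the other 22 tested in DSS, and the list's median log2 fold was -0.13 in AOM+DSS and -0.06 in DSS.

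**Figure D4:**
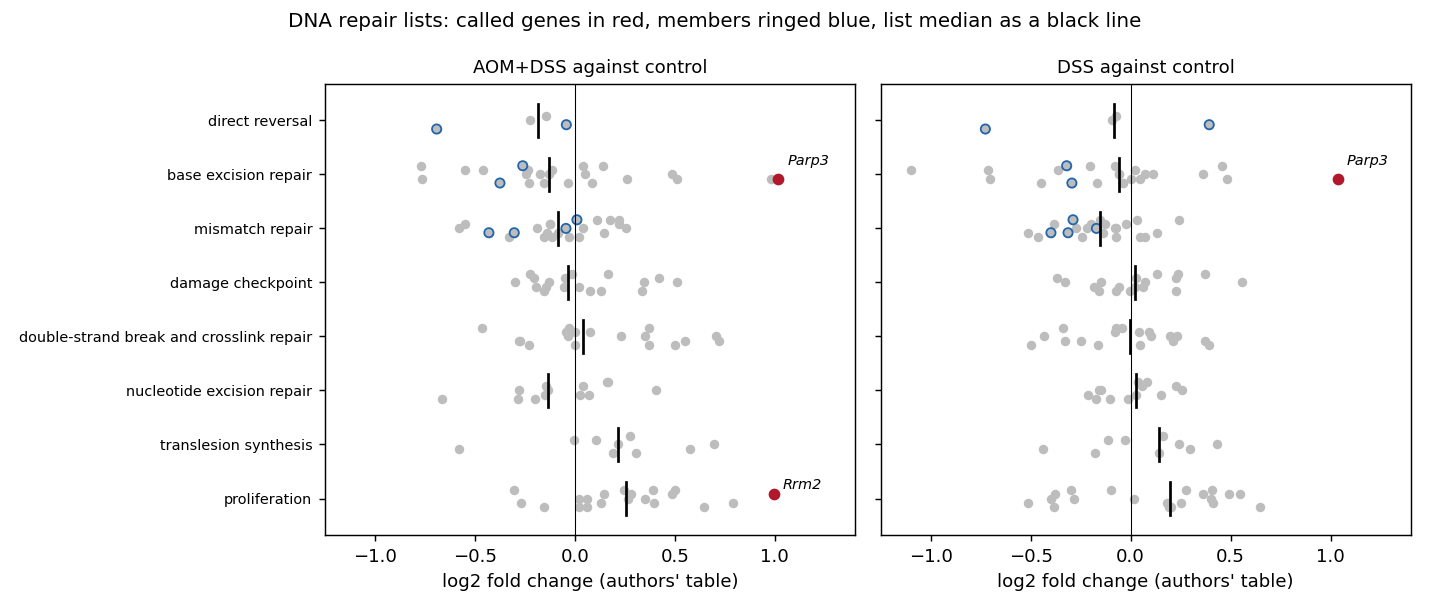
The authors' deposited log2 fold of each gene of 8 lists, in AOM+DSS and DSS against control (1 point per gene; red, adjusted p under 0.05; blue rings, the 8 members; black lines, list medians). Parp3 at 1.02 and 1.04 and Rrm2 at 0.99 are the called genes.

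No gene of the mismatch repair list passed in either comparison. Of all genes tested, 8.89% passed in AOM+DSS and 4.39% in DSS, and these shares stand beside every list below. Of the 23 mismatch repair genes, 14 had a log2 fold below 0 in AOM+DSS (median -0.08) and 18 in DSS (median -0.15). A fold below 0 was found for 8626 of 18334 genes tested in AOM+DSS and 8646 of 18099 in DSS. Hmgb1, a chromatin protein that assists mismatch excision, had -0.08 and -0.14, and Pcna, the sliding clamp of replication, had 0.22 and -0.20, in AOM+DSS and DSS in the authors' deposited tables. Direct reversal (4 genes) had no call, with Alkbh3 at -0.22 and -0.09 and Alkbh1 at -0.14 and -0.07. No gene passed among 18 of the damage checkpoint, 18 of double-strand break and crosslink repair, 13 of nucleotide excision repair or 9 of translesion synthesis in either comparison. Of these, Cdkn1a, the p53-induced brake on the cell cycle, had a log2 fold of -0.19 in both (adjusted p = 0.809 in AOM+DSS and 0.703 in DSS). Rad23b, a damage recognition partner of nucleotide excision repair, had 0.41 in AOM+DSS (adjusted p = 0.262) and 0.26 in DSS (adjusted p = 0.641). Its list mate Ddb1 had 0.17 and 0.04, Trp53bp1, a reader of chromatin at breaks, had -0.14 and 0.06, and Rad50, of the end-processing complex, had -0.05 and -0.08, in AOM+DSS and DSS. The break end binders Xrcc5 and Xrcc6 had -0.23 and -0.28 in AOM+DSS and -0.50 and -0.33 in DSS. The ubiquitin-conjugating enzymes of translesion synthesis, Ube2a and Ube2b, had 0.21 and -0.0046 in AOM+DSS and 0.24 and -0.03 in DSS.

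The remaining calls were in AOM+DSS, in the list of proliferation genes (1 of 20 called) and in that of AOM activation and methylation cofactors (2 of 5 tested), beside 8.89% of all genes tested. Rrm2, the ribonucleotide reductase subunit of S phase, rose, with a mean of 706.2 normalized reads in AOM+DSS, 498.8 in DSS and 354.4 in control and an authors' deposited log2 fold of 0.99 in AOM+DSS (adjusted p = 0.0238). The other 19 proliferation genes did not pass. The list's median log2 fold was 0.26 in AOM+DSS and 0.20 in DSS, beside 0.04 and 0.02 over all genes tested. Of the 20 genes, 3 had a fold below 0 in AOM+DSS and 7 in DSS. Mki67, the antigen of cycling cells, had 0.02 in AOM+DSS, below the list's median there, and 0.19 in DSS. Adh1, an alcohol dehydrogenase that can oxidise the AOM metabolite methylazoxymethanol, fell to 12810.7 normalized reads in AOM+DSS, against 29857.4 in control, a deposited log2 fold of -1.22 (adjusted p = 4.82e-06). In DSS it had 19533.6 and -0.61 (adjusted p = 0.0705). Ahcy, which clears the by-product of methylation reactions, fell to 4311.1 in AOM+DSS, against 6643.1 in control, a deposited log2 fold of -0.62 (adjusted p = 0.0402).

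On recovered reads, limma called 10 of 123 list genes tested in AOM+DSS, 4 of 116 in DSS and 0 of 116 between the treatments, beside 21.8%, 8.1% and 2.73% of all genes tested. Those lower in AOM+DSS were Aptx, Ddb2, Msh3, Pold2 and Ung, and those higher were Gadd45a, Parg, Parp3, Polk and Rrm2. Ung, the glycosylase that removes uracil from DNA, had 271.2 normalized reads in AOM+DSS, 282.8 in DSS and 460.1 in control, and its adjusted p was 0.0136 by limma in AOM+DSS. In the authors' deposited tables Ung had adjusted p-values of 0.0646 in both comparisons. Aptx, which removes adenylate from failed ligation ends, was lower by limma in AOM+DSS (-0.46, adjusted p = 0.0407) and in DSS (-0.72, adjusted p = 0.0212). The calls in DSS were Aptx and Mcm6, lower, and Ccna2 and Rrm2, higher. Parp3 was not tested by limma in DSS or between the treatments, since its reads in DSS were not recovered. Adh1 and Ahcy, with means above 4000, were not tested by limma in any comparison. The count of 4 in DSS fell to 0 without control a or control c and to 2 without DSS a, c or d. The count of 10 in AOM+DSS fell to 0 without control a, 1 without control c, 1 without AOM+DSS a and 2 without AOM+DSS b, and rose to 24 without AOM+DSS c and 19 without control b. The share of all genes called moved alike, to 4.07% without control a, 6.47% without control c, 6.21% without AOM+DSS a, 10.1% without AOM+DSS b, 30.7% without AOM+DSS c and 31.0% without control b.

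For the 3 members with the smallest adjusted p, the genes most like them over the 10 libraries were sought among 8460 genes with a mean of at least 50 (Pearson r of log2 levels, a description). Those nearest to Msh3 were Nudt16 (r = 0.96), Lancl1 (0.96) and Rdh14 (0.95). Those nearest to Mgmt were Tfpi2 (0.97), Rmdn1 (0.94) and E2f6 (0.93). Those nearest to Mpg were Tmem44 (0.98), 1810013D10Rik (0.98) and Col20a1 (0.97). The libraries of a group share treatment, while depth differs among libraries, and both can enter each r. Of these 9 genes, Col20a1 alone passed the authors' test, in AOM+DSS (deposited log2 fold -1.37, adjusted p = 0.0313).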

How the data were processed

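RNA-seq of 10 libraries was used. Per the submitters' processing notes, the authors used TopHat2 2.0, the mm9 build and DESeq. The sources used here do not give the read counter, annotation, strand setting or DESeq's version. The deposited signal columns hold normalized read counts averaged by group, per the file headers. The authors' fold (ratio of treated to control mean), its log2, the p-value and the adjusted p-value were used as deposited. One header speaks of 4 AOM+DSS replicates, whereas the labels list 3 and the means fit 3.

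The planned tests were kept: the authors' adjusted p under 0.05 against control, and limma 3.58.1 (R 4.3.3) between the treatments, on log2(normalized reads + 1) of genes with a mean of at least 10. Library reads were recovered by searching whole-read combinations that give each mean to 15 digits, for 95.9% of genes in AOM+DSS, 85.3% in DSS and 95.8% in control. Means above 4000 (3 libraries) or 1800 (4 libraries) were not searched, so recovered reads (2927183 to 13926779 per library) are not full depths. Both steps were tested on simulated data. No pair of replicates agreed within sampling noise (chi-square per degree of freedom 3.81 to 47.8). Depth limits precision, and the counts behind a value cover counting error only.

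Members and lists were chosen with earlier results of these data known. Named genes were the members, genes past the threshold in each list (at most 4 per list and comparison, otherwise the 2 with the highest mean), neighbours within 1000 bases and the likeness genes. Genes that only limma called were named after their values were seen. Some genes of the lists and some neighbours are not reported here. Alternatives covered the test, filter, pseudocount, scaling, adjustment and left-out libraries. Actb, Gapdh and Hprt were not called in either table.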

Additional observations from a re-analysis of the deposited data

How the results depend on the processing

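Of 296 alternatives for single members, 253 kept direction and side of the threshold. Of 74 for counts of calls, 47 stayed within 1.5 times the reported count. No paired analysis was possible because the deposited columns carry no replicate numbers. The DSS pairs left out below were formed from these same data, so those fits are no separate test. In DSS against control the members called by limma numbered 0, 2 without DSS a and b and 1 without DSS c and d, while 8.1%, 13.9% and 19.0% of all genes were called in these fits. Repair list genes here are all genes of the 9 lists, with proliferation genes and AOM activation and methylation cofactors among them. Those called in DSS against control numbered 1 by the authors' test and 4 by limma. The 1 was Parp3, which limma did not test in DSS because its reads there were not recovered. With the authors' p-values adjusted only over means of 10 or more, the count was 2. By limma it was 16 without a and b and 8 without c and d. In AOM+DSS against control the members called were 0 by the authors' test, 1 by limma (Msh3) and 0 by limma with no filter (adjusted p = 0.0531), and the repair list genes 4 and 10. Between the treatments, leaving out DSS a and b gave 1 member (Alkbh2, -0.83, adjusted p = 0.0485) and 11 repair list genes, against 0 and 0 with all libraries, while the share of all genes called was 13.1%, against 2.73% with all libraries.

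Leaving out single libraries gave 0 to 0 members in DSS against control, 0 to 1 in AOM+DSS against control and 0 to 0 between the treatments. The repair list counts by limma ran from 0 to 6, 0 to 24 and 0 to 0 in the same order. Directions turned as follows, on the log2 scale. In DSS without c and d, Alkbh2 was -0.10, Msh6 0.042 and Mlh3 0.056. In AOM+DSS by limma, Alkbh2 was 0.013 and Mlh3 -0.00045, and Alkbh2 was -0.027 with upper quartile scaling. Between the treatments without a and b, Mgmt was -0.076 and Pms2 0.026. Without c and d, Alkbh2 was 0.12, Mpg 0.25, Parp1 -0.24, Msh6 -0.078, Msh3 0.015 and Mlh3 -0.056. Leaving out single libraries, AOM+DSS against control ran from -0.30 to 0.18 for Alkbh2, -0.12 to 0.082 for Msh6 and -0.11 to 0.12 for Mlh3. AOM+DSS against DSS ran from -0.11 to 0.19 for Mgmt, -0.16 to 0.061 for Mpg, -0.027 to 0.21 for Parp1, -0.079 to 0.058 for Msh3 and -0.12 to 0.17 for Pms2. The cause was not tested.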
